A study of Mus musculus with 18 samples.

Results

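The lysyl oxidase family of the mouse has 5 genes: Lox, Loxl1, Loxl2, Loxl3 and Loxl4. They were taken by name from a table of 35275 genes measured in 18 RNA-seq libraries. All 5 reached the minimum level required for testing, 0.5 FPM in at least 3 libraries, as did 13869 genes in all. FPM is the read count of a gene after scaling for the size of its library, so that libraries of different depth can be compared. Earlier results of these data had shown Loxl2 among the largest differences between lines, so for the contrasts that drew attention to it the values below are given as a description with no test. The members were chosen by these measured values. The contrasts concerned are MUNC genomic against control cells in DM3, MUNC spliced against MUNC genomic cells in DM3, and the interaction of MUNC genomic with differentiation, together with every comparison of Loxl2 that uses MUNC genomic libraries, since those contrasts hold the libraries of both media. The same contrasts hold control libraries of both media and the MUNC spliced DM3 libraries. Tests of Loxl2 on those libraries are given, but they are not independent of its choice.

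Lysyl oxidases are secreted copper enzymes that oxidise lysine residues of collagen and elastin to reactive aldehydes, from which the covalent cross-links of the extracellular matrix form. Each carries a lysyl tyrosylquinone cofactor and a conserved catalytic domain at its C-terminal end. Lox and Loxl1 are made with a propeptide that is removed by Bmp1 and related proteases, whereas Loxl2, Loxl3 and Loxl4 carry scavenger receptor cysteine-rich domains. Loxl1 is best known for its part in elastic fibres, and Loxl2 for the cross-linking of basement membrane collagen IV. In skeletal muscle, Lox is made by connective tissue cells and by muscle cells, and it takes part in the development of muscle and its matrix.

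The cells were C2C12, a mouse myoblast line that fuses into myotubes when serum is lowered, and per the labels the stock used was PAX7 negative. MUNC, a noncoding RNA made from the region upstream of the myogenic factor gene Myod1, was overexpressed in either of 2 forms. The groups were the wild-type control, MUNC spliced (overexpression of the spliced form) and MUNC genomic (overexpression of the genomic form). Each was sampled in growth medium with 20% FBS at about 80% confluency (GM) and after 3 days of differentiation in 2% horse serum (DM3). There were 3 biological replicates in each of the 6 groups. All libraries were made from polyadenylated RNA. The vector, and whether each overexpressing line was 1 clone or a pool, are not given in the sources used here, and the level of MUNC itself was not analysed here. A label that calls each sample myoblasts or myotubes disagreed with the sample title in 9 of 18 samples, and groups were taken from the titles. The labels do not say how the replicates were grown, so the p-values measure the spread between these samples.

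Recovered depth was 38416702 to 68788327 reads per library, and 3 reads correspond to at most 0.0757 FPM. Counts from whole cultures cannot tell fewer cells of a type from less RNA per cell. Of 10 muscle markers, 9 passed the filter. The summed level of all 10 was 289 to 399 FPM in control GM and 628 to 942 FPM in control DM3. Myod1 stayed at or under 0.221 FPM and Ckm at or under 0.0553 FPM in the 6 control libraries, and Pax7 at or under 0.147 FPM in all 18. The muscle sum was 558 to 811 FPM in MUNC spliced GM, 547 to 906 FPM in MUNC genomic GM, 808 to 1675 FPM in MUNC spliced DM3 and 1722 to 1836 FPM in MUNC genomic DM3. Of 7 fibroblast markers, 6 passed, and the summed level of all 7 differed widely between groups. In GM it was 71.2 to 183 FPM in control cells, 160 to 301 FPM in the MUNC spliced line and 33.7 to 91.0 FPM in the MUNC genomic line. It was 1740 to 2184 FPM in control DM3, 1196 to 1883 FPM in MUNC spliced DM3 and 192 to 325 FPM in MUNC genomic DM3. Thy1, a defining fibroblast marker, had no reads in 4 of the 6 groups. Between control DM3 and GM, 5 of the 6 tested fibroblast markers were called higher (limma, adjusted p under 0.05) and 0 lower. Of the 9 tested muscle markers, 5 were called higher there and 0 lower. In that comparison 58.2% of all genes were called in either direction. The part that these marker levels play in the results on lysyl oxidases was not tested.

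The stretch of the coding sequence over the copper-binding site is printed to show how alike the members are at their catalytic centre. It is given for Loxl1, Loxl2, Loxl3 and Loxl4 from the longest coding transcript of GENCODE M21 (GRCm38), on the coding strand, with the 4 histidine codons of the motif in capitals. Each stretch has 63 bases and crosses 1 exon junction, so that the genomic spans given after it include an intron.
Loxl1: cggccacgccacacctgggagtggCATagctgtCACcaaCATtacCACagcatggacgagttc
Loxl2: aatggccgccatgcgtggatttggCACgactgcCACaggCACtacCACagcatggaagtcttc
Loxl3: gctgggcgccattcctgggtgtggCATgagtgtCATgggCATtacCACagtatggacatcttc
Loxl4: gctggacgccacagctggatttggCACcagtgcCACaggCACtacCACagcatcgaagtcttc
The Loxl1 stretch lies on the minus strand at chr9:58293705-58294396, in exons 3 and 4 of 7. That of Loxl2 lies on the plus strand at chr14:69682301-69689052, in exons 10 and 11 of 14. That of Loxl3 lies on the plus strand at chr6:83049980-83050140, in exons 10 and 11 of 14, and that of Loxl4 on the minus strand at chr19:42598792-42599914, in exons 11 and 12 of 15. Loxl2 and Loxl4 had 53 of the 63 bases in common, Loxl2 and Loxl3 47, and Loxl1 and Loxl2 40. Over all annotated transcripts, the longest run of bases shared exactly by 2 members was 32 bases, between Lox and Loxl1. The longest run that Loxl2 shared with another member was 28 bases, with Loxl1. The read length is not given in the sources used here, so the share of reads that could fall wholly within such runs was not computed.

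On GRCm38, Lox spans chr18:52516067-52529867 on the minus strand and Loxl1 chr9:58287738-58313186 on the minus strand. Loxl2 spans chr14:69609068-69695834 on the plus strand, Loxl3 chr6:83034173-83052562 on the plus strand and Loxl4 chr19:42593982-42612813 on the minus strand. Their exons together cover 4.778 kb in Lox, 3.297 kb in Loxl1, 5.405 kb in Loxl2, 4.603 kb in Loxl3 and 4.213 kb in Loxl4. Whether counting used the strand is not given in the sources used here, so reads in overlaps with genes on the opposite strand cannot be told apart. Loxl3 shares 535 exonic bases with Htra2, a gene for a mitochondrial protease, whose level was 22.6 to 93.2 FPM, and values of Loxl3 are uncertain to that extent. Loxl2 shares 301 exonic bases with the antisense gene Gm27177, which never exceeded 0.0198 FPM.

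Between members, levels were compared after division by exonic length, as FPM per kb. Lox was the most abundant member in all 6 groups. In control GM it stood at 187 ± 2.23 FPM per kb (SD, n = 3), followed by Loxl1 at 61.3 ± 4.25, Loxl3 at 21.9 ± 2.26, Loxl4 at 11.1 ± 3.42 and Loxl2 at 1.44 ± 0.447. Lox thus made up 66.2% ± 2.17 of the family sum in control GM, and Loxl2 made up 0.510% ± 0.169. In MUNC spliced DM3 the share of Lox was 81.2% ± 2.67 and that of Loxl2 0.0286% ± 0.00485. In MUNC genomic cells Loxl2 held 13.4% ± 4.39 of the sum in GM and 34.1% ± 2.45 in DM3, where it was the member next to Lox (147 ± 5.51 against 188 ± 30.0 FPM per kb). The summed level of the family was 283 ± 9.80 FPM per kb in control GM and 310 ± 1.29 in control DM3. It was 422 ± 80.2 in MUNC spliced GM, 559 ± 48.8 in MUNC spliced DM3, 333 ± 74.4 in MUNC genomic GM and 432 ± 25.8 in MUNC genomic DM3.

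**Figure D1:**
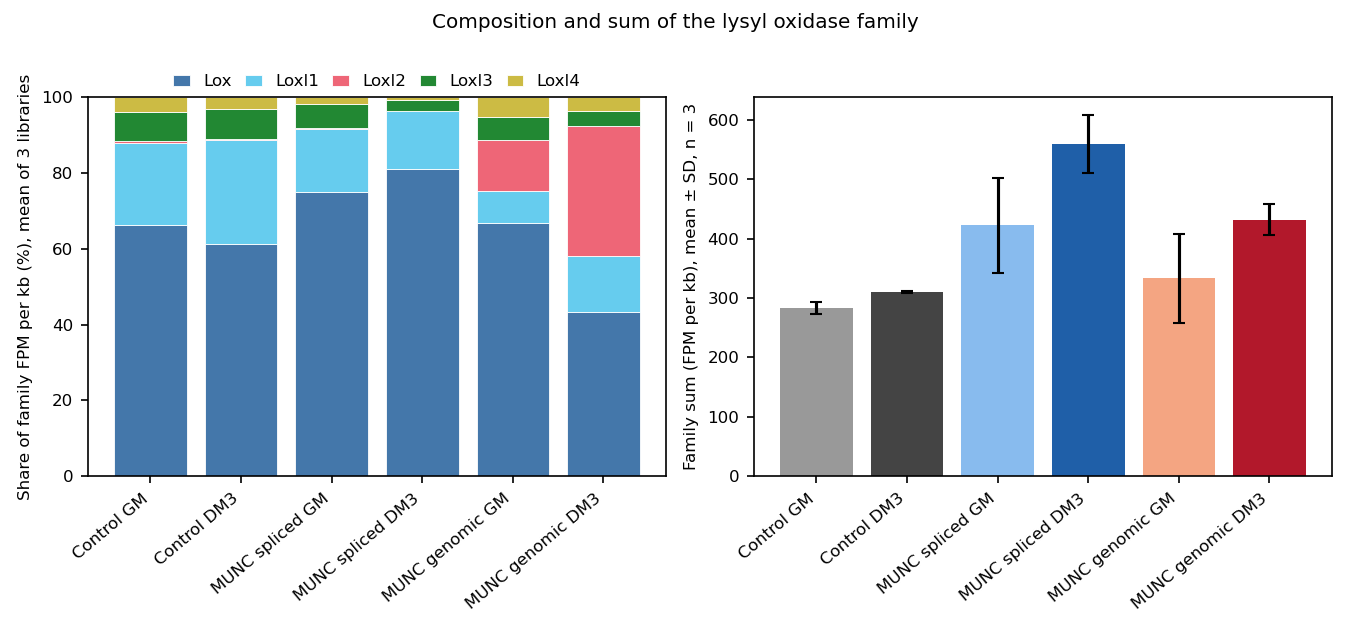
Left, the share of each gene in the summed FPM per kb of the family, as the mean of 3 libraries in each of the 6 groups; right, that sum as mean ± SD (n = 3). Lox is the largest part of every bar, and Loxl2 is a visible part in the MUNC genomic groups, at 13.4% and 34.1%.

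Differences were tested on log2(FPM + 1) with limma across all 13869 genes and are given as log2 differences on that scale, which understate changes of low genes. The share of all tested genes called (adjusted p under 0.05) was large in every comparison, and the members' counts were read against it. Between DM3 and GM, 2 of 5 members were called in control cells (1 higher and 1 lower), where 58.2% of all genes were called. In MUNC spliced cells 4 of 5 were called (1 higher and 3 lower), against 35.6% of all genes, and in MUNC genomic cells 1 of the 4 members tested (higher), against 51.4%. In GM, 2 of 5 members were called between MUNC spliced and control cells (1 higher and 1 lower), against 35.5% of all genes, and 2 of the 4 tested between MUNC genomic and control cells (1 higher and 1 lower), against 26.8%. In DM3, 4 of 5 were called between MUNC spliced and control cells (1 higher and 3 lower), against 43.3%. Between MUNC spliced and MUNC genomic cells in GM, 2 of the 4 tested were called (1 higher and 1 lower), against 35.8%. With 5 members, these counts say little about the family as a group, and the genes are described 1 by 1. The counts that include Loxl2 carry the limit on its choice given above.

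**Figure D2:**
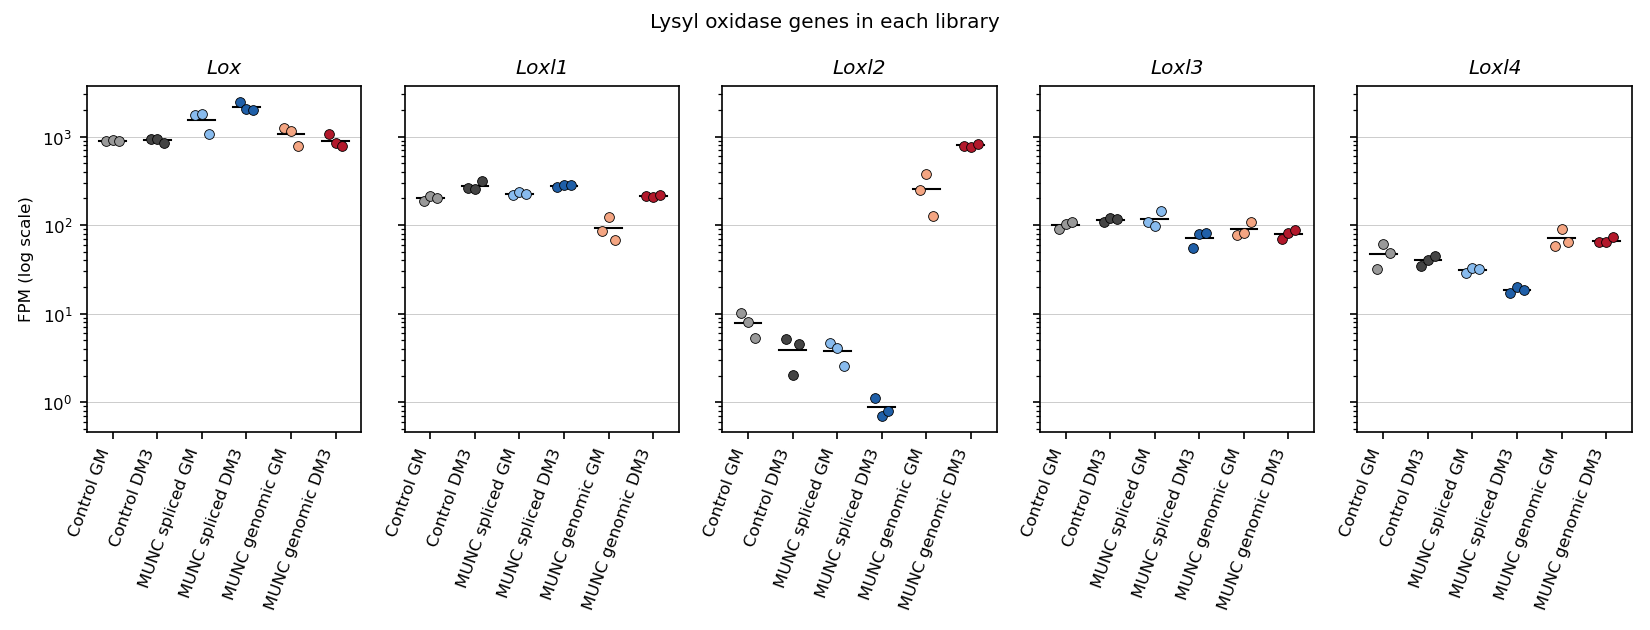
FPM on a log scale of each lysyl oxidase gene in each of the 18 libraries; points are libraries, colours the 6 groups and short lines the group means. Loxl2 spans from 0.70 FPM in MUNC spliced DM3 to 826 FPM in MUNC genomic DM3, whereas Loxl3 stays between 55.2 and 145 FPM.

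Lox, the founding member, which cross-links fibrillar collagens and elastin, was higher in MUNC spliced cells. Its level was 897, 904 and 883 FPM in the 3 control GM libraries, 1743, 1784 and 1063 FPM in the MUNC spliced GM libraries and 1242, 1149 and 791 FPM in the MUNC genomic GM libraries. In DM3, Lox was at 933, 937 and 850 FPM in control cells, 2475, 2043 and 1997 FPM in MUNC spliced cells and 1056, 854 and 778 FPM in MUNC genomic cells. Every MUNC spliced library was above every control library in the same medium, and replicate 3 of MUNC spliced GM was the lowest of its group. By group mean the order was MUNC spliced DM3, MUNC spliced GM, MUNC genomic GM, control DM3, MUNC genomic DM3 and control GM. Libraries of neighbouring groups overlapped throughout that order except between the leading group and MUNC spliced GM. Against control cells, Lox rose in MUNC spliced cells by 0.73 in GM (SE 0.20, adjusted p 0.00902), a 1.71-fold ratio of means. It rose by 1.25 in DM3 (SE 0.20, adjusted p 9.74e-05), a 2.39-fold ratio. The difference of these differences was 0.52 (SE 0.28, adjusted p 0.224). Without replicate 2 of MUNC spliced GM the GM difference was 0.60 (adjusted p 0.0504). Of 6 adipocyte markers 3 passed. The sum of all 6 was 20.2 to 26.1 FPM in MUNC spliced GM and 7.01 to 11.2 FPM in control GM. Lep had no reads in either group. Within that list Cebpa stood at 11.2 FPM in MUNC spliced GM, against 0.450 FPM in control GM, whereas Fabp4 was lower, at 0.183 against 1.32 FPM. Smooth muscle markers (3 of 4 passing) summed to 1911 to 3208 FPM in MUNC spliced DM3 and 1194 to 1372 FPM in control DM3, and to overlapping ranges in GM. Nearly all of that sum was Acta2 (2247 against 1234 FPM in DM3), and Cnn1 was lower, at 0.560 against 6.36 FPM. In MUNC genomic DM3 the smooth muscle sum was 2274 to 3648 FPM. The part of these adipocyte and smooth muscle markers in the difference of Lox was not tested.

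Between DM3 and GM, Lox did not differ detectably in control cells (0.02, SE 0.20, adjusted p 0.949). The difference was -0.23 in MUNC genomic cells (SE 0.20, adjusted p 0.356). In MUNC spliced cells it was 0.54 higher in DM3 (SE 0.20, adjusted p 0.0450). That call was lost without replicate 3 of MUNC spliced GM (0.29, adjusted p 0.259), without replicate 1 (adjusted p 0.128), replicate 2 (adjusted p 0.0731) or replicate 3 (adjusted p 0.0664) of MUNC spliced DM3, and under 4 other settings, with adjusted p of 0.0553 to 0.160. Between MUNC genomic and control GM the difference of Lox was 0.22 (SE 0.20, adjusted p 0.465). Between MUNC spliced and MUNC genomic GM it was 0.52 (SE 0.20, adjusted p 0.0528), and it passed with the replicate number as a block (adjusted p 0.00836). It also passed with equal sums (adjusted p 0.0338), quantile normalization (adjusted p 0.0335) and DESeq2 (adjusted p 0.0369), and without replicate 3 of MUNC spliced GM (0.76, adjusted p 0.00479) or without replicate 1 of MUNC genomic GM (0.64, adjusted p 0.0377). In DM3, where no test was made, Lox was 1.28 higher in MUNC spliced than in MUNC genomic cells, and it differed by -0.03 between MUNC genomic and control cells.

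Loxl1, the elastic fibre member, was low in MUNC genomic GM. Its level was 187, 215 and 205 FPM in control GM, 219, 234 and 224 FPM in the MUNC spliced GM libraries and 85.2, 124 and 68.4 FPM in the MUNC genomic GM libraries. In DM3, Loxl1 was at 264, 257 and 317 FPM in control cells, 266, 285 and 283 FPM in MUNC spliced cells and 212, 208 and 216 FPM in MUNC genomic cells. All 3 MUNC genomic GM libraries lay below the other 15. Loxl1 was lower in MUNC genomic than in control GM (log2 difference -1.16, SE 0.15, adjusted p 2.19e-05), a 2.19-fold ratio. Compared with MUNC genomic GM it was 1.32 higher in MUNC spliced GM (SE 0.15, adjusted p 3.80e-06). Between media it rose in MUNC genomic cells by 1.23 (SE 0.15, adjusted p 7.53e-06), a 2.30-fold ratio. In control cells it rose by 0.46 (SE 0.15, adjusted p 0.0151), a call lost without replicate 1 of control GM (adjusted p 0.0565) or replicate 3 of control DM3 (adjusted p 0.0754). In MUNC spliced cells the difference was 0.30 (SE 0.15, adjusted p 0.130).

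The order of Loxl1 by group mean was control DM3, MUNC spliced DM3, MUNC spliced GM, MUNC genomic DM3, control GM and MUNC genomic GM. Libraries overlapped between control and MUNC spliced DM3 and between MUNC genomic DM3 and control GM, and not between the other neighbours. Between MUNC spliced and control cells the difference of Loxl1 was 0.16 in GM (SE 0.15, adjusted p 0.432) and 0.00 in DM3 (SE 0.15, not called). In DM3, with no test, it was lower in MUNC genomic than in control cells (log2 difference -0.39), with all 3 libraries lower. The difference of the change between media, MUNC genomic less control, was 0.77.

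Loxl2, a member that acts on collagen IV of basement membranes, had the widest range. In control cells it was 10.1, 8.03 and 5.24 FPM in GM and 5.22, 2.05 and 4.53 FPM in DM3. MUNC spliced cells had 4.67, 4.12 and 2.58 FPM in GM and 1.12, 0.70 and 0.80 FPM in DM3. In MUNC genomic cells it was 249, 381 and 127 FPM in GM and 791, 767 and 826 FPM in DM3. The 6 MUNC genomic libraries were thus above the other 12, and the 3 MUNC spliced DM3 libraries were below all others. The lowest library still held 40 reads of Loxl2, and the MUNC genomic DM3 libraries held 39978 to 50900. By group mean the order was MUNC genomic DM3, MUNC genomic GM, control GM, control DM3, MUNC spliced GM and MUNC spliced DM3, and libraries of neighbouring groups overlapped only between control DM3 and MUNC spliced GM.

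The comparisons of Loxl2 with MUNC genomic cells are a description with no test. In GM the log2 difference from control cells was 4.75, a 32.5-fold ratio of means, and that of MUNC spliced from MUNC genomic cells was -5.62. In DM3 the mean of MUNC genomic cells was 202-fold that of control cells and 912-fold that of MUNC spliced cells. From GM to DM3 the mean of MUNC genomic cells rose from 252 ± 127 to 795 ± 29.8 FPM (SD, n = 3), a 3.15-fold ratio with all DM3 libraries above all GM libraries. The replicates of MUNC genomic GM were spread widely, from 127 to 381 FPM, and those of DM3 closely, from 767 to 826 FPM. Of 5 endothelial markers 2 passed the filter. The summed level of all 5 was at most 1.74 FPM in any library of the other lines. It was also highest in MUNC genomic cells, at 7.14 to 7.62 FPM in GM and 4.01 to 5.28 FPM in DM3. Nearly all of it was Cdh5 (7.14 ± 0.125 FPM in MUNC genomic GM), while the defining markers Pecam1 and Kdr stayed at or under 0.221 FPM and 0.0252 FPM. The part of other cell types in the result was not tested. In the authors' deposited table the log2 fold change of Loxl2 between MUNC genomic and control cells was 5.06 in GM and 7.67 in DM3.

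The control libraries and those of MUNC spliced DM3 also took part in the contrasts that drew attention to Loxl2. Its p-values below are therefore not independent of its choice. In the cells with little Loxl2, its level was lower after differentiation. It fell by 0.86 in control cells (SE 0.33, adjusted p 0.0364), a 1.98-fold ratio, and fell by 1.34 in MUNC spliced cells (SE 0.33, adjusted p 0.00548), a 4.35-fold ratio. In both, every DM3 library was below every GM library, although in control cells the gap was 5.24 to 5.22 FPM. The call in control cells was lost without replicate 1 (adjusted p 0.141) or 2 (adjusted p 0.0811) of control GM or replicate 2 of control DM3 (adjusted p 0.196). It was also lost when no filter on low values was applied (adjusted p 0.0780) or only the groups compared were fitted (adjusted p 0.0550). Between MUNC spliced and control cells, Loxl2 was lower in DM3 (log2 difference -1.34, SE 0.33, adjusted p 0.00390), a 4.52-fold ratio. In GM the difference was -0.86 (SE 0.33, adjusted p 0.0537), with 3 of 3 libraries lower, and it passed with the replicate number as a block (adjusted p 0.0322) and under 5 other settings or when replicate 3 of control GM was left out (adjusted p 0.0336). The difference between these differences was -0.48 (SE 0.47, adjusted p 0.524). In the authors' deposited table the difference of Loxl2 between MUNC spliced and control GM was -1.04 (DESeq2, adjusted p 0.00470).

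**Figure D3:**
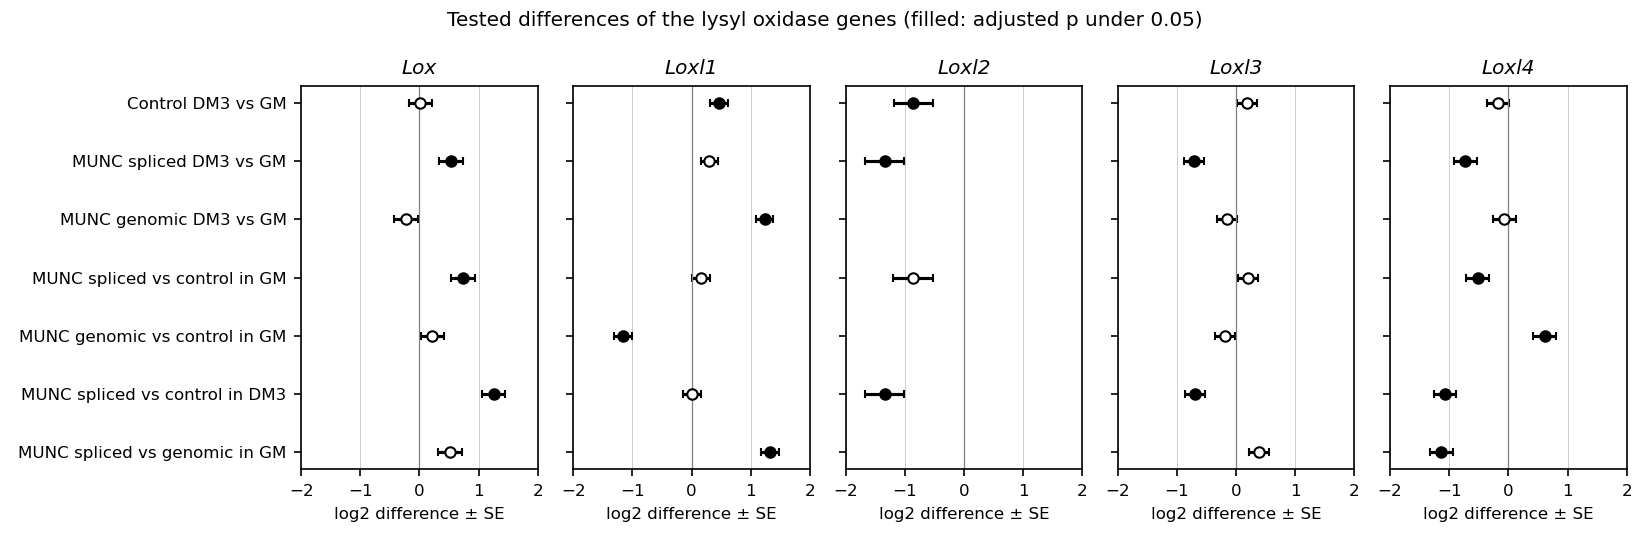
Log2 difference (log2(FPM + 1), limma) ± SE of each gene in the 7 comparisons tested between groups; filled points passed an adjusted p under 0.05. Comparisons of Loxl2 with MUNC genomic libraries are left out because they were not tested. Lox lies to the right and Loxl4 to the left in both comparisons of MUNC spliced with control cells, and Loxl1 in MUNC genomic against control GM lies at -1.16.

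Loxl3, a scavenger receptor-type member needed for normal muscle-tendon attachment and palate development, varied least. In control cells it was 89.5, 104 and 110 FPM in GM and 109, 121 and 116 FPM in DM3. MUNC spliced cells had 109, 98.5 and 145 FPM in GM and 55.2, 78.6 and 81.4 FPM in DM3. In MUNC genomic cells it was 77.7, 82.5 and 108 FPM in GM and 70.2, 82.0 and 87.99 FPM in DM3. The libraries of neighbouring groups overlapped throughout the order of group means, which ran MUNC spliced GM, control DM3, control GM, MUNC genomic GM, MUNC genomic DM3 and MUNC spliced DM3. Between media Loxl3 fell by 0.71 in MUNC spliced cells (SE 0.17, adjusted p 0.00396), in 3 of 3 libraries. The difference was 0.19 in control cells (SE 0.17, adjusted p 0.346), against -0.15 in MUNC genomic cells (SE 0.17, adjusted p 0.485). In DM3 it was lower in MUNC spliced than in control cells (log2 difference -0.69, SE 0.17, adjusted p 0.00324).

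The response of Loxl3 to differentiation differed between MUNC spliced and control cells by -0.90 (SE 0.24, adjusted p 0.0208), and it was the only member of 5 called in that interaction, where 14.4% of all genes were called. Without replicate 1 of control GM the adjusted p was 0.0512, and without replicate 2 of control DM3 it was 0.0524. In GM, Loxl3 differed from control cells by 0.21 in MUNC spliced cells (SE 0.17, adjusted p 0.361), against -0.18 in MUNC genomic cells (SE 0.17, adjusted p 0.466). Between MUNC spliced and MUNC genomic GM the difference was 0.39 (SE 0.17, adjusted p 0.0808), and it passed with the replicate number as a block (adjusted p 0.0105), with quantile normalization (adjusted p 0.0458), without replicate 2 of MUNC spliced GM (adjusted p 0.0454) or without replicate 3 of MUNC genomic GM (adjusted p 0.0302). The overlapping gene Htra2 fell between media in all 3 lines, with differences of -0.89 in control (SE 0.17, adjusted p 0.000336), -0.76 in MUNC spliced (SE 0.17, adjusted p 0.00270) and -0.93 in the MUNC genomic line (SE 0.17, adjusted p 0.000286). Between MUNC spliced and control DM3 its difference was -0.41 (SE 0.17, adjusted p 0.0629). Its part in the values of Loxl3 was not tested.

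Loxl4, another scavenger receptor-type member, was high in MUNC genomic and low in MUNC spliced cells. In control cells it was 31.9, 60.7 and 47.8 FPM in GM and 34.9, 40.7 and 45.2 FPM in DM3. MUNC spliced cells had 28.9, 32.9 and 32.2 FPM in GM and 17.1, 20.2 and 18.4 FPM in DM3. In MUNC genomic cells it was 58.7, 91.4 and 63.8 FPM in GM and 63.7, 63.7 and 73.3 FPM in DM3. The order of group means was MUNC genomic GM, MUNC genomic DM3, control GM, control DM3, MUNC spliced GM and MUNC spliced DM3. Libraries overlapped between the MUNC genomic groups and between the control groups, and not between the other neighbours. Loxl4 was lower in MUNC spliced than in control DM3 (log2 difference -1.07, SE 0.19, adjusted p 0.000304), a 2.17-fold ratio. Compared with MUNC genomic GM it was lower in MUNC spliced GM (log2 difference -1.14, SE 0.19, adjusted p 0.000226). Between media it fell in MUNC spliced cells (log2 difference -0.73, SE 0.19, adjusted p 0.00801). The difference between media was -0.17 in control cells (SE 0.19, adjusted p 0.461), against -0.07 in MUNC genomic cells (SE 0.19, adjusted p 0.804).

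In GM, the calls of Loxl4 against control cells rested on groups whose libraries overlapped, although within the same-numbered pairs Loxl4 was lower in MUNC spliced cells in 3 of 3 and higher in MUNC genomic cells in 3 of 3. The difference was -0.52 in MUNC spliced cells (SE 0.19, adjusted p 0.0451), against 0.62 in MUNC genomic cells (SE 0.19, adjusted p 0.0250). The former was lost without replicate 2 (-0.31, adjusted p 0.216) or 3 (adjusted p 0.113) of control GM and without replicate 1 (adjusted p 0.122), 2 (adjusted p 0.0769) or 3 (adjusted p 0.0712) of MUNC spliced GM. It was also lost with no filter (adjusted p 0.0847), equal sums (adjusted p 0.114), quantile normalization (adjusted p 0.0777) or only the groups compared (adjusted p 0.122). The latter was lost without replicate 1 of control GM (0.37, adjusted p 0.138) or replicate 2 of MUNC genomic GM (0.43, adjusted p 0.141), with no filter (adjusted p 0.0522) or with only the groups compared (adjusted p 0.143). In the authors' deposited table the adjusted p-values of the same differences were 0.0543 and 0.0570. In DM3, with no test, Loxl4 was 0.72 higher in MUNC genomic than in control cells, with all 3 libraries higher.

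Across the 18 libraries, Pearson correlations of log2(FPM + 1) between members are a description, since libraries of a group share a line and a medium. The highest was between Loxl2 and Loxl4 (0.83) and the lowest between Lox and Loxl4 (-0.75). Among genes that are no members and reached a group mean of at least 5 FPM, the 5 with a pattern most like that of Loxl2 over the 18 libraries were Ctsh (0.984), Add2 (0.982), Rbm47 (0.982), Itgal (0.981) and As3mt (0.977). Ctsh encodes a lysosomal cysteine protease, Add2 a membrane skeleton adducin and Rbm47 an RNA-binding protein. Add2, for example, had a mean of 1.19 FPM in control GM, 73.5 FPM in MUNC genomic GM, 100 FPM in MUNC genomic DM3 and 0.0418 FPM in MUNC spliced DM3. For Lox the most alike were Car3 (0.957), a carbonic anhydrase, Tgfb2 (0.949), a growth factor, and Qk (0.948), an RNA-binding protein. Car3 had a mean of 5.73 FPM in control GM and 1170 FPM in MUNC spliced DM3. For Loxl1 they were Tead3 (0.942), Zbtb4 (0.937) and Ghdc (0.932), for Loxl3 Gmip (0.899), Tsku (0.837) and Pcif1 (0.829), and for Loxl4 Mmd (0.949), Rhpn2 (0.936) and the ligand Wnt7b (0.933).

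The genes next to Loxl2 on chromosome 14 were not higher in MUNC genomic GM. The nearest tested gene, R3hcc1, lies 1.5 kb from Loxl2, and it was lower in MUNC genomic than in control GM (-0.57, SE 0.15, adjusted p 0.0114). The other 3 of the 4 neighbours were lower as well. These were Chmp7 at 21.2 kb (-0.28, SE 0.10, adjusted p 0.0435), Slc25a37 at 324 kb (-0.81, SE 0.23, adjusted p 0.0164) and Nefl at 1520 kb (-1.27, SE 0.23, adjusted p 0.000741). Of all genes, 14.5% were called lower in that comparison. The same 4 genes were also lower in MUNC spliced than in control GM, where 17.3% of all genes were called lower. There the difference was -0.77 for R3hcc1 (adjusted p 0.00113) and -0.45 for Chmp7 (adjusted p 0.00198). It was -0.85 for Slc25a37 (adjusted p 0.00986) and -6.25 for Nefl (adjusted p 1.00e-11). From GM to DM3 in MUNC genomic cells R3hcc1 rose by 0.96 (SE 0.15, adjusted p 9.29e-05), from 45.5 ± 4.47 to 89.7 ± 8.33 FPM (SD, n = 3), and Chmp7 rose by 0.39 (SE 0.10, adjusted p 0.00335). Slc25a37 rose by 0.78 (SE 0.23, adjusted p 0.0104) and Nefl fell by 2.51 (SE 0.23, adjusted p 9.43e-07), where 51.4% of all genes were called in either direction. In control cells R3hcc1 fell over the same interval (-0.40, SE 0.15, adjusted p 0.0343). In DM3, described with no test, R3hcc1 was higher in MUNC genomic than in control cells, at 89.7 ± 8.33 against 51.3 ± 5.53 FPM. Chmp7 was at 72.3 ± 2.64 against 68.8 ± 4.01 FPM and Nefl at 18.3 ± 3.48 against 14.4 ± 3.48 FPM. Slc25a37 was lower, at 258 ± 35.1 against 532 ± 86.9 FPM.

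Proteins that process lysyl oxidases, load them with copper or bring them to their substrates were taken as a list of 14 genes, 12 of which passed the filter. Of these 12, 3 were higher and 0 lower in MUNC spliced than in control GM (list median 0.29, all genes -0.02), and again 3 and 0 in DM3 (median 0.11, all genes 0.01). Of all genes, 18.2% were called higher and 17.3% lower in GM, and 22.3% and 21.0% in DM3. In MUNC genomic GM 4 were higher and 2 lower than in control cells (median 0.02, all genes -0.03), where 12.2% of all genes were called higher and 14.5% lower. Fbln5, a fibulin that ties Loxl1 to elastin, was 23.6 ± 5.81 FPM in control GM, 24.5 ± 9.73 FPM in MUNC spliced GM, against 1.87 ± 0.325 FPM in MUNC genomic GM (SD, n = 3). It was thus lower in MUNC genomic than in control GM (-3.07, SE 0.25, adjusted p 7.24e-08), as was Loxl1. In DM3 Fbln5 was 87.4 ± 23.5 FPM in MUNC spliced cells and 20.3 ± 2.00 FPM in control cells (2.02, SE 0.25, adjusted p 7.12e-06), while Loxl1 was level between these groups. Postn, the matricellular protein periostin, which helps Bmp1 to act on Lox, was higher in MUNC spliced cells by 2.30 in GM (SE 0.32, adjusted p 4.95e-05) and by 3.69 in DM3 (SE 0.32, adjusted p 1.95e-07).

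Efemp2, the fibulin that brings Lox to elastin, differed from control GM by 0.14 in MUNC spliced (SE 0.10, adjusted p 0.282), against 0.31 in MUNC genomic cells (SE 0.10, adjusted p 0.0304). Bmp1, the protease that frees active Lox, differed by -0.03 (SE 0.12, adjusted p 0.876) and 0.11 (SE 0.12, adjusted p 0.547). In MUNC spliced DM3, where Lox was highest, Efemp2 differed from control cells by 0.08 (SE 0.10, adjusted p 0.559) and Bmp1 by -0.01 (SE 0.12, adjusted p 0.938). Atp7a, the copper pump of the secretory pathway, rose between media in control cells (0.77, SE 0.16, adjusted p 0.000759), MUNC spliced cells (0.46, SE 0.16, adjusted p 0.0360) and MUNC genomic cells (0.61, SE 0.16, adjusted p 0.00520). It was also higher than in control GM in MUNC spliced GM (0.59, SE 0.16, adjusted p 0.0101) and MUNC genomic GM (0.47, SE 0.16, adjusted p 0.0424). Between media, 5 of the 12 genes were higher and 2 lower in control cells, 4 and 2 in MUNC spliced cells and 6 and 2 in MUNC genomic cells. In either direction, 58.2%, 35.6% and 51.4% of all genes were called in these comparisons.

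**Figure D4:**
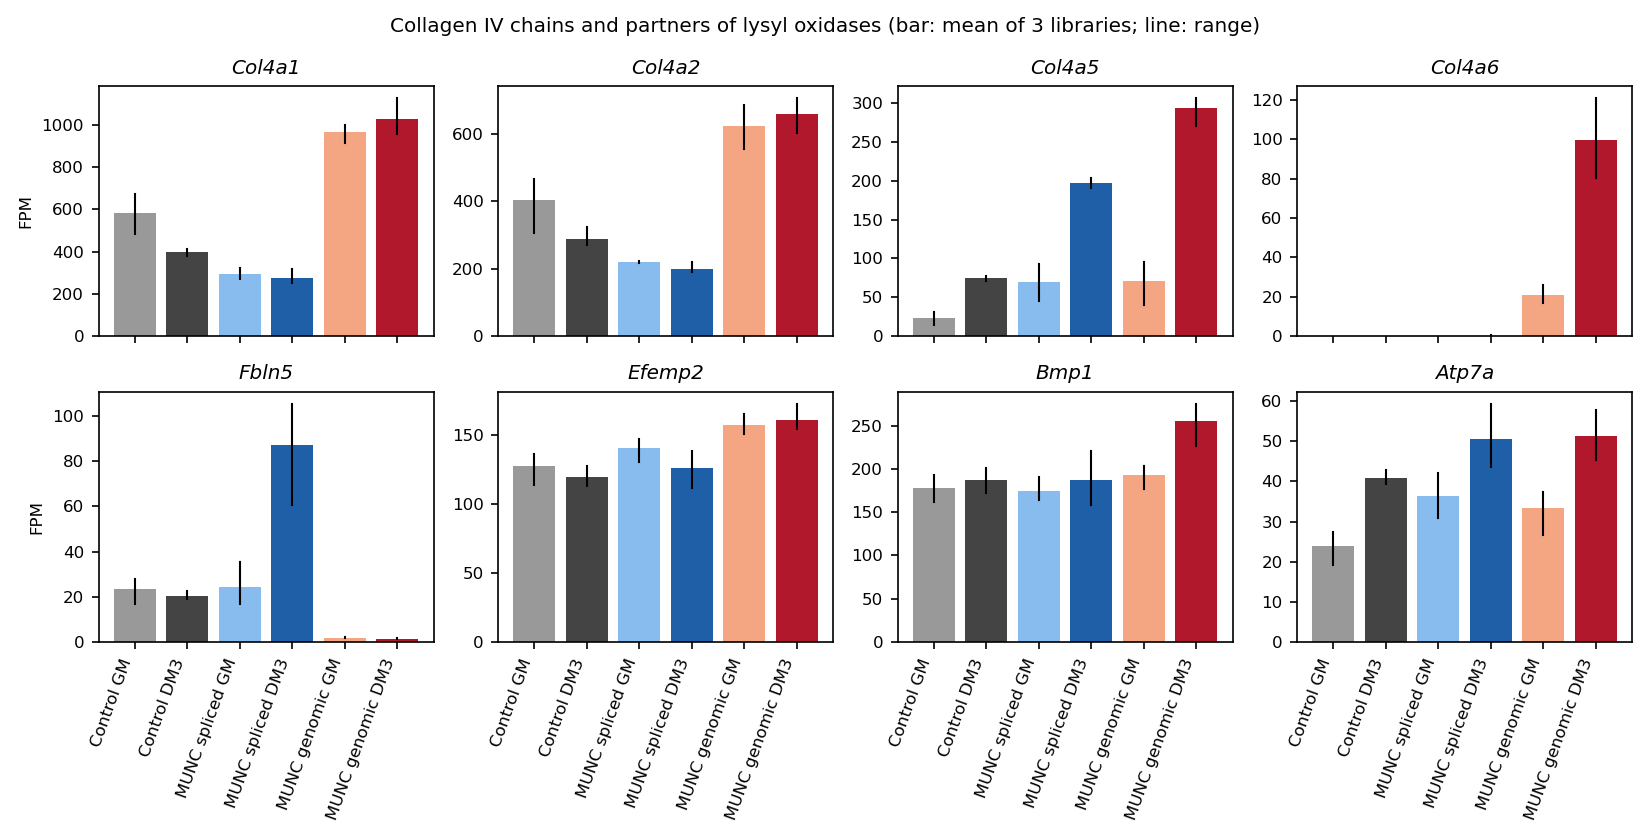
FPM of 4 collagen IV chains and of Fbln5, Efemp2, Bmp1 and Atp7a in the 6 groups; bars are means of 3 libraries from 0, and lines run from the lowest to the highest library. Col4a6 is visible in the MUNC genomic groups, at 20.8 and 99.7 FPM, and Fbln5 in those groups is at 1.87 and 1.40 FPM.

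Among the substrates, 4 of the 6 collagen IV chains passed the filter. Col4a1 was higher in MUNC genomic than in control GM by 0.74 (SE 0.13, adjusted p 0.000421), Col4a2 by 0.64 (SE 0.14, adjusted p 0.00253) and Col4a5 by 1.57 (SE 0.30, adjusted p 0.000969), where 12.2% of all genes were called higher. Col4a6 passed the filter only through the MUNC genomic libraries, so it is described with no test. It stood at 20.8 ± 4.59 FPM (SD, n = 3) in MUNC genomic GM and at 0 to 0.0177 FPM in control GM. In MUNC spliced GM Col4a1 (-0.995, SE 0.13, adjusted p 2.18e-05) and Col4a2 (-0.85, SE 0.14, adjusted p 0.000200) were lower than in control cells and Col4a5 was higher (1.56, SE 0.30, adjusted p 0.000800). The same 3 chains were called in the same directions in MUNC spliced DM3. Of 8 fibrillar collagen chains tested, of 9 listed, 5 were higher and 0 lower in MUNC spliced than in control GM (median 0.75), 4 and 0 in DM3 (median 0.59), and 2 higher and 1 lower in MUNC genomic than in control GM (median 0.44). Over all genes the shares called higher were 18.2%, 22.3% and 12.2%. Col1a2, a chain of type I collagen, was higher in MUNC spliced DM3 by 0.88 (SE 0.22, adjusted p 0.00494), and Col5a2 by 0.97 (SE 0.17, adjusted p 0.000226).

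Of 15 elastic fibre genes, 12 were tested, and Eln itself did not pass the filter. In MUNC spliced DM3 6 were higher and 3 lower than in control cells, where 22.3% of all genes were called higher and 21.0% lower. Among the 6 was Mfap4, which passed the filter only through the MUNC spliced DM3 libraries. Its call there was favoured by the filter and is not read as a result. In MUNC spliced GM 4 were higher and 2 lower (median 0.20), against 18.2% and 17.3% of all genes, and in MUNC genomic GM 2 were higher and 2 lower (median 0.22), against 12.2% and 14.5%. Mfap5, a microfibril protein, was higher in MUNC spliced DM3 by 3.12 (SE 0.31, adjusted p 6.80e-07). The collagen lysine and proline modification list holds Plod1, Plod2 and Plod3, which hydroxylate lysine residues of the kind that lysyl oxidases use. It also holds prolyl hydroxylases and other genes of collagen modification and folding. Of its 16 genes, 15 were tested. Of these, 2 were higher and 2 lower in MUNC spliced GM (median 0.03), 2 and 3 in MUNC spliced DM3 (median -0.10), and 3 and 5 in MUNC genomic GM (median -0.27). In either direction, 35.5%, 43.3% and 26.8% of all genes were called in these comparisons. P3h3, a collagen prolyl 3-hydroxylase, was lower in MUNC genomic than in control GM (-2.78, SE 0.15, adjusted p 3.32e-10), and P4ha3, a prolyl 4-hydroxylase subunit, was higher (1.87, SE 0.17, adjusted p 3.27e-07).

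Loxl2 and Loxl3 are known to act on the transcription factor Snai1 in epithelial cells. Therefore 8 genes of the mesenchymal transition were listed, transcription factors together with the cadherins Cdh1 and Cdh2. Of these 8 genes 6 were tested, Cdh2 among them. In MUNC genomic GM 1 was higher and 2 lower than in control cells (median -0.30, all genes -0.03), and in MUNC spliced cells 1 was higher and 1 lower in GM (median 0.29) and in DM3 (median 0.29). The shares of all genes called in these comparisons were 26.8%, 35.5% and 43.3%. Snai1 was 15.1 ± 2.00 FPM in control GM and 21.1 ± 1.42 FPM in MUNC genomic GM (0.46, SE 0.16, adjusted p 0.0483). It was lower in MUNC spliced than in control DM3 (-0.76, SE 0.16, adjusted p 0.00141). Zeb2, another factor of this group, was lower in MUNC genomic GM (-0.54, SE 0.10, adjusted p 0.00106) and higher in MUNC spliced DM3 (0.82, SE 0.10, adjusted p 1.34e-05).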

How the data were processed

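The members and all gene lists were chosen with earlier results of these data known. Per the submitters' processing notes, the authors used STAR, HTSeq and DESeq2 with the mm10 genome; versions and settings are not given in the sources used here. Normalized signal, in FPM, was deposited for the 18 libraries. All values of a library were whole multiples of the smallest, and dividing by it gave back whole reads for 100% of values (within 0.0354 of a read). FPM sums were 946834 to 1048477. The authors also deposited 5 tables of comparisons, with log2 fold changes and standard errors, p-values and adjusted p-values, and scores (mean level and test statistic, not used here), per the file headers.

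Genes that reached 0.5 FPM in 3 or more libraries were tested with limma 3.58.1 (R 4.3.3) on log2(FPM + 1): 6 group means over all 18 libraries, 12 residual degrees of freedom, eBayes with a trend, Benjamini-Hochberg adjustment over 13869 genes, and calls at an adjusted p under 0.05. All tests were two-sided. Comparisons of Loxl2 with MUNC genomic libraries, 2 of them (in GM) planned as tests, are given with no test because the choice of the family rested on those libraries. That choice also involved control and MUNC spliced DM3 libraries, so the remaining tests of Loxl2 are not independent of it. The code was tested on simulated data. Named genes were the members, the called list genes with the largest differences, a few fixed partners, the 3 genes most alike (5 for Loxl2) and 2 neighbours on each side. In addition, Col4a2, Mfap4 and single marker genes were named after their values were seen. Alternatives were a pseudocount of 0.1, no filter, equal sums, quantile normalization, edgeR 4.0.16 and DESeq2 1.42.0 on recovered reads, only the groups compared, a replicate block and leaving out each library. Same-numbered libraries deviated together: in the comparisons of control DM3 with GM, both MUNC lines with control cells in either medium, and MUNC spliced with MUNC genomic GM, every same-number correlation of deviations exceeded 0.1, and the numbers were taken as pairs there. The main test did not use this pairing, so its p-values leave it out. It entered only the replicate block and the counts within same-numbered pairs. GENCODE M21 (GRCm38) gave coordinates, lengths and sequences. Markers of other cell types were listed too. Over all libraries, leukocyte markers (1 of 5 passing, Emr1 without reads in 5 of 6 groups) summed to 0.854 to 5.53 FPM, and smooth muscle markers to 1194 to 3648 FPM.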

Additional observations from a re-analysis of the deposited data

Results flagged for a closer look

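The change of Loxl2 between media went in opposite directions in different lines. In MUNC genomic cells every DM3 library was above every GM library, with a ratio of means of 3.15, whereas in control cells and in MUNC spliced cells every DM3 library was below every GM library. This difference was not tested, because the contrast had drawn attention to Loxl2.

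The change of Loxl3 between media differed between MUNC spliced and control cells by -0.90 (limma interaction, SE 0.24, adjusted p 0.0208). That call was lost without replicate 1 of control GM (adjusted p 0.0512) or replicate 2 of control DM3 (adjusted p 0.0524). Loxl3 also shares 535 exonic bases with Htra2, whose part was not tested. Loxl3 was lower in 3 of 3 DM3 libraries of MUNC spliced cells, and the control libraries of the media overlapped.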

How the results depend on the processing

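The differences of Lox, Loxl2, Loxl3 and Loxl4 between MUNC spliced and control DM3, of Loxl1 between MUNC genomic and control GM, of Loxl1 and Loxl4 between MUNC spliced and MUNC genomic GM, of Loxl2, Loxl3 and Loxl4 between media in MUNC spliced cells and of Loxl1 between media in MUNC genomic cells kept their direction and their call under every alternative run. The calls of Loxl2 among those just named are not independent of its choice. The members called in control DM3 against GM were 2, and 1 without a filter on low values or with only the groups compared, and 0 to 2 when a library was left out. In MUNC spliced against control GM they were 2, and 1 without a filter or with equal sums, and 0 to 2 when a library was left out. There Loxl2 was called in addition to Lox and Loxl4 with a pseudocount of 0.1, edgeR, DESeq2 or the replicate block. In MUNC genomic against control GM the members called were 2, and 1 without a filter or with only the groups compared, and 1 to 2 when a library was left out. In MUNC spliced against MUNC genomic GM they were 2, and 4 with quantile normalization or with the replicate block, and 2 to 3 when a library was left out. There Lox was called in addition with equal sums or DESeq2. In the MUNC spliced interaction the members called were 1, and 0 to 1 when a library was left out. Small differences changed sign: Lox in control DM3 against GM (-0.019 with edgeR, and -0.0066 to 0.064 when a library was left out), Loxl4 there (-0.42 to 0.034 when a library was left out, positive without replicate 2 of control GM), Loxl4 in MUNC genomic DM3 against GM (-0.19 to 0.12, positive without replicate 2 of MUNC genomic GM), and Loxl1 in MUNC spliced against control DM3 (-0.057 to 0.094). All genes called in MUNC spliced DM3 against GM were 4933, and 3046 with only the groups compared. In the MUNC spliced interaction they were 1993, 1214 with only the groups compared, 3868 with the replicate block and 1063 to 2434 when a library was left out. In the MUNC genomic interaction they were 1222, 777 with edgeR, 2265 with the block and 784 to 1345 when a library was left out. The numbers were not taken as pairs in these 3 comparisons, and beyond Loxl2, Lox and Loxl3 the block changed no call of a member. Equal sums raised the share of higher calls from 51.3% to 66.1% in MUNC spliced against control GM and from 45.6% to 56.2% in MUNC genomic against control GM, and lowered it from 51.7% to 41.4% in the MUNC spliced interaction. The FPM sums were 946834 to 969570 in MUNC spliced GM and 976882 to 998445 in MUNC genomic GM, against 1.024e+06 to 1.048e+06 in control GM. Scaling to equal sums raises a library with a lower sum. Why the sums differed was not tested. With 40 reads in the lowest library, Loxl2 in MUNC spliced DM3 is the value most limited by depth.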
